A study of Mus musculus with 2 samples.

Results

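In the mouse hippocampus, 49 genes had a transcript annotated for nonsense-mediated decay as their leading RNA. They were chosen by the transcript type in the annotation, by a share of at least 50% of the gene's TPM in both libraries, and by a gene level of at least 10 TPM in both. TPM gives the abundance of an RNA per base of length and relative to all RNA of the library. The 49 genes were 0.608% of the 8063 genes at that level and 2.06% of the 2378 of those that hold at least 1 annotated decay transcript. The tissue was from female mice of B6CASTF1/J, an F1 cross between C57BL/6J and CAST/EiJ, aged 36 days. It is labelled as a layer of the hippocampus, with the layer not named, and 300 ng of total RNA was given as the input of each of 2 libraries, replicates 1 and 2. No genotype beyond the hybrid background and no treatment is given, so there was 1 group and no control. Both libraries carry the same donor identifier and separate biosamples, so the spread between them may be technical, at least in part. The libraries also differed in choroid plexus markers, as given below.

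Nonsense-mediated decay is a surveillance pathway that removes messenger RNAs whose stop codon lies well upstream of an exon junction. Splicing leaves an exon junction complex near each junction, and a ribosome that stops before it recruits the helicase Upf1 and its partners, after which the RNA is cut or stripped and degraded. Cells also use the pathway to set the level of normal genes, by splicing in or out a piece that brings an early stop codon. Annotation assigns the decay label by a rule on the position of the stop codon, and no decay was measured here.

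Pairs of coding sequences from GENCODE release M21 (build mm10) show how leading decay transcripts come to an earlier stop codon than a protein-coding sibling. These pairs are shown because they hold an example of each of the 4 commonest kinds of splicing change among the members, a shorter, longer, skipped or included exon. Each line is read 5′ to 3′. Lower case marks the last 30 bases that both RNAs share, and capitals mark what follows, as far as the end of the early stop codon in the decay transcript and over the same number of bases in the sibling. The last 3 capitals of each decay line are its stop codon.
Ppia-201, decay: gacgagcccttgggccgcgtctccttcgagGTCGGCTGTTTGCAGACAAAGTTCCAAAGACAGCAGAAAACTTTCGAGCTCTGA
Ppia-202, coding: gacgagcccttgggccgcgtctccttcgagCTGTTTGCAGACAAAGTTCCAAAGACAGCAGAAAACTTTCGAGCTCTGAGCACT
Lgi1-201, decay: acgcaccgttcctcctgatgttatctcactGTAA
Lgi1-207, coding: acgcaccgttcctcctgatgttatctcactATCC
Arf4-203, decay: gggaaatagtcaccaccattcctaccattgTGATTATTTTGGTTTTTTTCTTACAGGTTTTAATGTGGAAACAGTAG
Arf4-201, coding: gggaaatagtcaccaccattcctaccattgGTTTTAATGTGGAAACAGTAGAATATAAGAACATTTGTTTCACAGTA
Dirc2-202, decay: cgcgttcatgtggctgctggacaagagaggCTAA
Dirc2-201, coding: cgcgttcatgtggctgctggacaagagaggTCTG
Ppp2r2a-203, decay: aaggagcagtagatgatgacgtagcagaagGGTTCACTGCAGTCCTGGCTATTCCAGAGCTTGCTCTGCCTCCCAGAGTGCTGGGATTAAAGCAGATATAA
Ppp2r2a-201, coding: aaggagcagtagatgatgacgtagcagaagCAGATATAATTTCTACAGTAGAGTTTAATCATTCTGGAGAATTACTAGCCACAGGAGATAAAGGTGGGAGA
Aptx-205, decay: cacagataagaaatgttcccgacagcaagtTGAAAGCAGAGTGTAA
Aptx-201, coding: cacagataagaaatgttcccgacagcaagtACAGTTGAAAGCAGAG
In Ppia-201 an exon is 5 bases longer than in Ppia-202, and the early stop codon lies at chr11:6418241-6418243 on the plus strand. The exon of Lgi1-201 runs 9 bases further than that of Lgi1-207, into the stop codon at chr19:38265099-38265101 (plus strand). The Arf4-203 exon starts 26 bases earlier than the one in Arf4-201, with its stop codon at chr14:26646932-26646934 (plus strand). Dirc2-202 skips an exon of 94 bases, and its stop codon follows at chr16:35735647-35735649 (minus strand). Ppp2r2a-203 includes an exon of 62 bases that its sibling lacks, with the stop codon at chr14:67038964-67038966 (minus strand). An exon of Aptx-205 is 5 bases shorter than in Aptx-201, and its stop codon lies at chr4:40695402-40695404 (minus strand).

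The same kinds of change ran through the set. Of the 47 members whose gene also has a coding transcript, the first difference from the closest one was a shorter exon in 13, a skipped exon in 11, a longer exon in 9 and an included exon in 7. Among the skipped exons 10 of 11 had a length that is not a multiple of 3, against 712 of 793 in the other decay transcripts, and among the included exons 6 of 7, against 542 of 782. Bcas2-206 kept an intron of 82 bases. In Srsf9-205 no internal exon difference lay between the annotated coding start and the stop codon. Its annotated start is incomplete and differs from that of Srsf9-204, and 369 of its bases and 3 of its junctions are in no coding transcript. In the remaining 5 no difference preceded the stop codon. In 31 of the 47, just 1 exon junction was absent from every coding transcript of the gene. In 10 there were 2 and in 4 there was none. Among 3911 other decay transcripts these counts were 2276, 1152 and 155. As many as 22 had no base of their own outside the coding transcripts, or 46.8%, against 41.9% of the other decay transcripts of expressed genes. Such a member can be told from the coding transcripts only by junctions that they lack. Slc35b1-202, Naa60-201 and Gm38394-202 had no such base and no such junction. Transcripts of other types were not part of this comparison.

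Every member had its stop codon at least 50 bases before the last exon junction, as did 99.4% of the other decay transcripts, so the annotated label matched the position rule. The distance ran from 56 bases in Ndufa3-204 to 3630 in Gm38394-202, with a median of 366 against 316 in the other decay transcripts. Of 48 members outside chromosome 18, the stop codon was TGA in 23, TAA in 15 and TAG in 10. Member RNAs had a median length of 2024 bases against 984 for the other decay transcripts of expressed genes. The highest support level of the annotation was held by 26 of 49, against 968 of 3913 other decay transcripts. The coding start was incomplete in 7 members, so their reading frame is known only in part, against 1292 of 3913 other decay transcripts.

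**Figure D1:**
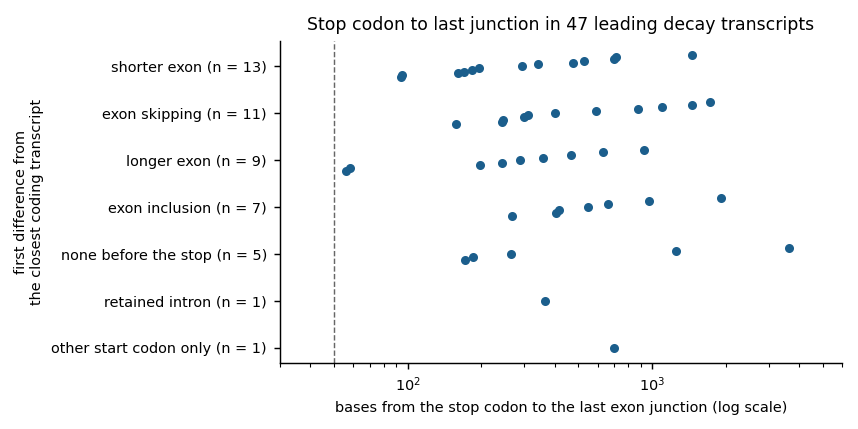
Distance in bases from the stop codon to the last exon junction (log scale) for the 47 members with a coding sibling, grouped by their first difference from the closest coding transcript; each point is 1 decay transcript and the dashed line is 50 bases. All points lie to the right of the line, the nearest at 56 bases.

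In 5 members the decay transcript holds the complete reading frame of a coding sibling. An exon junction lies at least 50 bases after the stop codon in each. Naa60-201 and Gm38394-202 also have the same introns as a coding sibling, so no junction sets their label apart from it. These 5 were 10.6% of the members with a coding sibling, against 3.40% of the other decay transcripts. They are Atp2a2-203, Mobp-204, Naa60-201, Cbx1-204 and Gm38394-202. The last 60 coding bases of 2 of them, with the stop codon in capitals, are shown because the same stop codon ends the coding sibling.
Atp2a2-203: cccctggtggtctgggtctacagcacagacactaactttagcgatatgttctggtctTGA
Mobp-204: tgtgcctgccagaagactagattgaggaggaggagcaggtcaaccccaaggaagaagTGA
The Atp2a2-203 frame has 3132 bases and is that of Atp2a2-201, with the stop codon at chr5:122457151-122457153 (minus strand) and 1258 bases before the last junction. Mobp-204 shares its frame of 243 bases with Mobp-202, Mobp-203 and Mobp-206, and stops at chr9:120173188-120173190 (plus strand). Gm38394-202 is identical in sequence to the coding Gm38394-201, and each was given 50% in both libraries by both quantifications, so no read can tell them apart. In the other 42 members the frame was cut to a median of 33.3% of the longest coding sibling, from 6.14% in Dennd1b-205 to 86.0% in Pgs1-201. Of the 5, Mobp-204 and Cbx1-204 match a shorter coding sibling, and their frames were 47.6% and 74.6% of the longest.

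The shares that chose the members came from a quantification of reads aligned to the transcriptome, called the first below. A second quantification, made from the reads of the same libraries with the same annotation, was not used by the rule. It is read here as a second estimate of each share. The member kept at least 50% in both libraries there in 24 of 49 genes. Without the genes Gm20716 and Gm20683, which have 1 transcript and hence a share of 100% by construction, the count was 22 of 47, or 46.8%. The 47 include Gm38394, whose member is identical in sequence to its coding sibling and so was fixed at 50%. With Gm38394 also left out, the count was 21 of 46, or 45.7%. Among all 4573 expressed genes with 2 or more transcripts and a leading one, 69.4% led again. A coding leader led again in 70.3% of cases and a retained intron leader in 37.8%. Coding leaders started from higher first shares, with medians of 77.55% and 76.33% in replicates 1 and 2, against 64.95% and 64.71% for the members. The types were not matched for first share, so these percentages do not compare them from the same start. The member still ranked first in both libraries in 34 of the 47 genes, or 72.3%, against 83.6% over all leading transcripts. Without Gm38394, where the member tied with its sibling, that was 33 of 46, or 71.7%.

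The median share over the 47 members was 65.0% and 64.7% in replicates 1 and 2 in the first quantification, and 51.5% and 51.3% in the second. The share was lower in the second in both libraries for 36 of the 47 (66.4% over all leading transcripts, where a high first share is also the basis of choice) and higher in both for 8. It was under 25% in both for 5, Mrps14, Naa60, Gm1673, Arf4 and Slc35b1. For the higher and the under 25% counts, the share over all leading transcripts was not computed. Of the 13 members that did not rank first in both libraries, a coding transcript had the highest mean in 6 and a retained intron transcript in 3. Another decay transcript took that place in Pcnp, and the member itself still had the highest mean in Ndufa3, Pgs1 and Mrpl13, the last 2 named after their values were seen. By single library, a coding transcript was highest in replicate 2 for Pcnp and Pgs1 and in replicate 1 for Mrpl13.

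**Figure D2:**
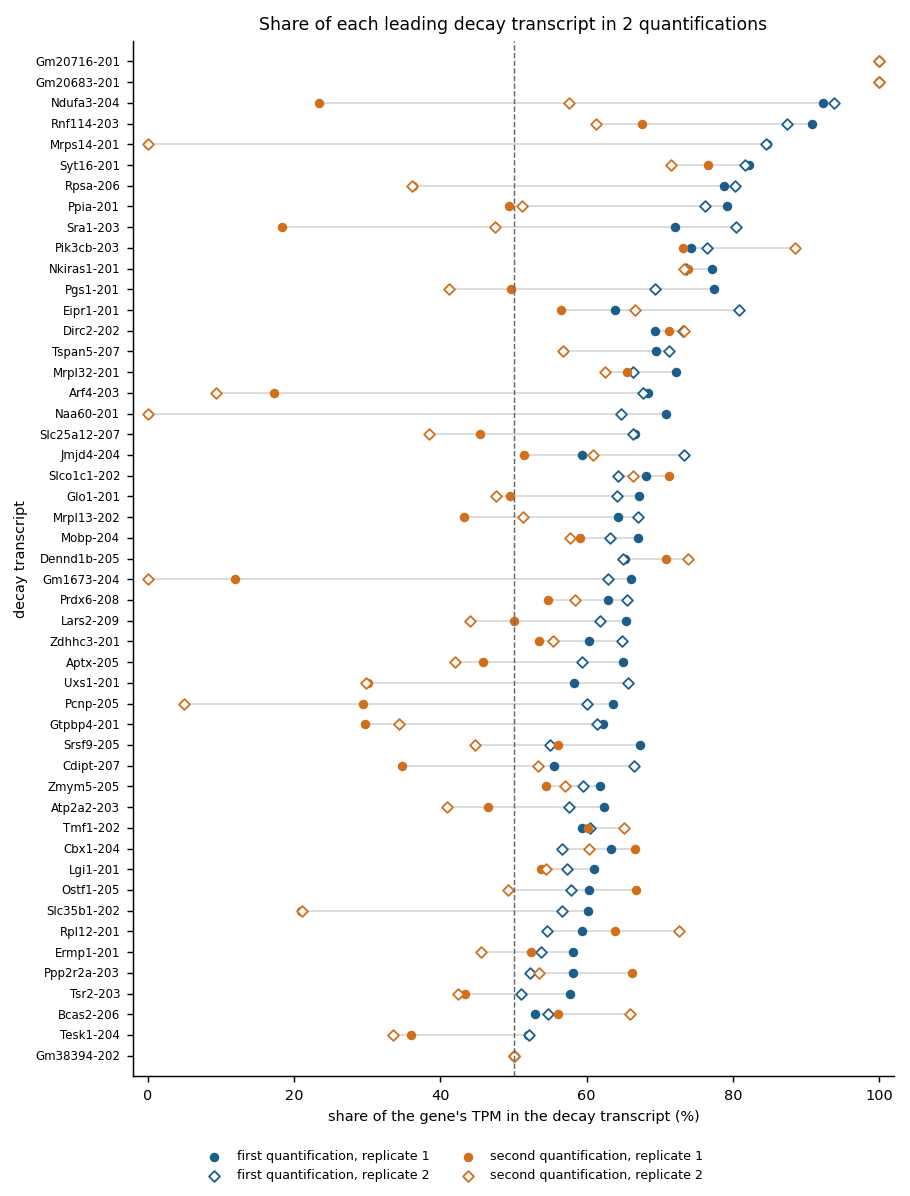
Share of the gene's TPM (%) held by each of the 49 leading decay transcripts; blue marks the first quantification and orange the second, filled circles replicate 1 and open diamonds replicate 2, with the 50% minimum dashed. The blue marks lie at or right of 50 by construction, while the orange marks reach from 0 to 88.4% among genes with 2 or more transcripts.

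The median difference in share between the libraries was smaller than the drop in median share between the quantifications. The median difference between replicates was 3.50 percentage points in the first quantification (2.75 over all leading transcripts) and 4.88 in the second. The difference passed 10 points in 4 of 47 members in the first, against 8.20% of all leading transcripts. In the second it did so in 10 of 47, and the share over all leading transcripts was not computed there. Eipr1, a factor in endosome recycling, had the widest first-quantification gap, 63.8% in replicate 1 and 80.8% in replicate 2. Ndufa3-204 had the widest in the second, 23.4% and 57.5%. The authors' lower TPM bound of the member lay above the upper bound of every other transcript of its gene in both libraries for 45 of 49, against 94.1% of all leading transcripts. The exceptions were Srsf9, Bcas2, Gm1673 and Gm38394. For Naa60, Mrps14 and Arf4 these bounds separated too, so they do not cover the difference between the quantifications.

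The leaders by type put the 49 in context. Coding transcripts led 4875 genes, or 90.9% of the 5364 genes with a leader, decay transcripts 0.913% and retained intron transcripts 0.839%. The second quantification, at the same gene TPM, gave 50 genes led by a decay transcript, and 24 were in both sets, or 49% of the first and 48% of the second. Decay transcripts of all expressed genes took 1.10% and 1.08% of those genes' TPM in replicates 1 and 2 in the first quantification, and 2.57% and 2.65% in the second. The members held 20.5% and 19.3% of the decay TPM in the first and 11.1% and 10.5% in the second.

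**Figure D3:**
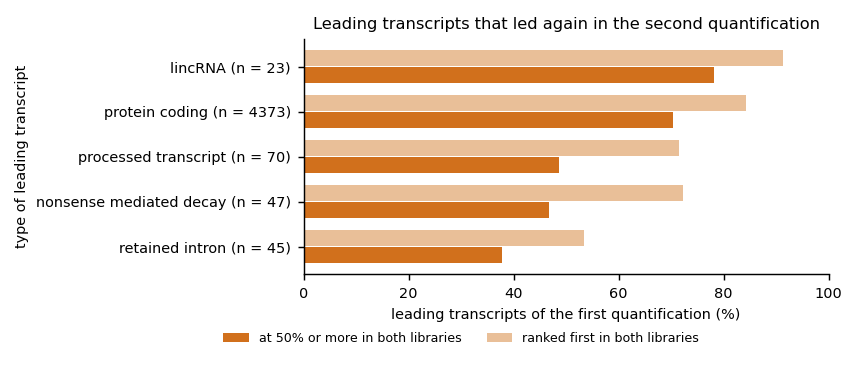
Percent of the leading transcripts of each type in the first quantification (genes with 2 or more transcripts, types with at least 20, n beside each) that were at 50% or more (dark bars) or ranked first (light bars) in both libraries in the second. Decay transcripts, at 46.8% and 72.3%, lie below protein coding transcripts, at 70.3% and 84.2%. The types were not matched for first share, whose median was higher for protein coding transcripts.

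Genes of protein synthesis made up 8 of the 49. In the second quantification 2 of those 8 led again, against 69.4% of all leading transcripts. This group and those below were formed after values were seen. Rpsa encodes a protein of the small ribosomal subunit and had a gene level of 171 TPM in replicate 1 and 183 TPM in replicate 2. Rpsa-206, in which an exon is 73 bases longer than in Rpsa-201, held 78.8% and 80.3% of it in the first quantification. In the second it held 36.3% and 36.2%, and the coding Rpsa-204 held 60.3% in each library, against 11.2% and 8.40% in the first. Replicates thus differed by 1.57 points in the first estimate and by 0.0877 in the other, and the leader changed between the quantifications. Rpl12, a protein of the large subunit and one of the ribosomal genes known for a decay transcript, went the other way. Rpl12-201 held 59.4% and 54.6% in the first quantification and 63.9% and 72.6% in the second. The retained intron transcript Rpl12-202 went from 26.8% and 29.6% to 0 in both libraries, and the coding Rpl12-203 from 6.87% and 6.28% to 27.4% and 20.7%. The summed count of Rpl12 was 1.48 and 1.83 times as large in the second quantification, and both Rpsa and Rpl12 shared reads with other genes, so their levels are uncertain.

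The mitochondrial ribosome contributed 3 members. Mrps14-201 held 84.6% of its gene in both libraries in the first quantification and was at 0 in both in the second. There the coding Mrps14-202 took 91.9% and 92.9%, up from 4.57% and 5.91%. Mrps14-201 differs from it first by an exon 234 bases shorter, and its gene held 601 and 460 reads in the first quantification. Mrpl32-201 by contrast led in all 4 estimates, from 62.5% to 72.1%, and Mrpl13-202 stood at 64.2% and 67.0% in the first and 43.2% and 51.3% in the second. Gtpbp4, a GTPase of large-subunit assembly, had 62.3% and 61.4% in Gtpbp4-201 in the first quantification and 29.7% and 34.4% in the second, where the retained intron transcript Gtpbp4-203 was highest. Tsr2, a factor of small-subunit maturation, lay just inside the share minimum at 57.7% and 51.0%, and had 43.3% and 42.4% in the second. Lars2, the mitochondrial leucyl-tRNA synthetase, had 65.4% and 61.8% in Lars2-209 and then 50.1% and 44.1%. Its summed count was 2.56 and 2.43 times as large in the second quantification, the widest such gap among the members, and its level was 31.7 and 23.3 TPM.

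Metabolic genes numbered 7, and Prdx6 was the 1 that led again in both libraries, against 69.4% of all leading transcripts. Ndufa3 encodes a small subunit of respiratory complex I and stood at 236 and 231 TPM. Its decay transcript of 343 bases, with an exon 10 bases longer than in Ndufa3-201, held 92.2% and 93.8% in the first quantification. That was the highest first share of a gene with more than 1 transcript, and in the second it was 23.4% in replicate 1 and 57.5% in replicate 2. Counts of this transcript, which are not scaled to length, fell from 1248.5 and 1184.4 to 56.5 and 194.7. In the second quantification these were 6.08% and 23.7% of the gene's counts. The summed count of Ndufa3 was 0.66 and 0.62 times as large there. Prdx6, an antioxidant enzyme found in astrocytes, had 133 and 128 TPM. Prdx6-208, which skips an exon of 157 bases, held 63.0% and 65.4% in the first quantification and 54.7% and 58.4% in the second. All 4 estimates put it above 50%, and coding transcripts together stayed between 11% and 15.6%. Glo1 detoxifies methylglyoxal and was at 76.3 and 79.4 TPM. Glo1-201 includes an exon of 131 bases and held 67.2% and 64.1%, then 49.5% and 47.6%, and remained the highest transcript. The coding transcripts of Glo1 together took 30.9% and 32.4% in the first quantification and 48.4% and 48.8% in the second, so decay and coding RNA were nearly level there. Cdipt makes phosphatidylinositol, and Cdipt-207 held 55.5% and 66.5%, then 34.7% and 53.4%. Slc25a12, the neuronal aspartate-glutamate carrier of mitochondria, had 66.6% and 66.3% in Slc25a12-207, then 45.4% and 38.4%. Its single leading coding transcript Slc25a12-206 stayed low in both, between 10.9% and 15.6%. Uxs1 makes UDP-xylose, and Uxs1-201 went from 58.2% and 65.6% to 30.1% and 29.8%. The coding Uxs1-207, at 27.6% and 32.6%, was below it in replicate 1 and above it in replicate 2.

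Membrane transport and trafficking held 10 members, of which 7 led again in both libraries, against 69.4% of all leading transcripts. Atp2a2 encodes the calcium pump that refills the endoplasmic reticulum and was at 275 and 247 TPM, with 32266 expected counts in replicate 1. Atp2a2-203 held 62.4% and 57.6% in the first quantification and 46.6% and 40.9% in the second. It stayed the highest transcript, while the coding transcripts summed to 36.3% and 40.6% and then to 52.7% and 57.0%. The leading RNA changes sides in that sum, although Atp2a2-203 and Atp2a2-201 encode the same protein by annotation. Syt16, a synaptotagmin relative, was at 21.7 and 23.5 TPM. Syt16-201 includes an exon of 821 bases and held 82.2% and 81.7%, then 76.6% and 71.5%, with the coding Syt16-203 between 6.21% and 7.04% throughout. Slco1c1 carries thyroid hormone across the blood-brain barrier, and Slco1c1-202 held 68.1% and 64.3%, then 71.2% and 66.3%. Dirc2, a lysosomal transporter, had 69.3% and 73.1% in Dirc2-202 and then 71.2% and 73.3%. In Slco1c1 and Dirc2 the ranges of the 2 quantifications overlapped. Tspan5 belongs to the tetraspanins that escort the protease Adam10, and Tspan5-207 held 69.4% and 71.2%, then 56.7% in both. Dennd1b, an exchange factor for Rab GTPases, and Eipr1 also led again, Dennd1b-205 at 70.8% and 73.8% and Eipr1-201 at 56.5% and 66.6% in the second quantification. Tmf1-202, of a Golgi protein, lay between 59.3% and 65.0% in the 4 estimates. By counts, which are not scaled to length, Dennd1b-205 held 16.1% in both libraries in the first quantification. In the second it held 15.2% and 17.0% of counts. Dirc2-202 and Tmf1-202 also lay under 50% by counts in the 4 estimates, while Syt16-201, Slco1c1-202, Tspan5-207 and Eipr1-201 lay above it.

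Arf4 and Slc35b1 were the 2 trafficking members that no longer ranked first in the second quantification. Arf4 is a small GTPase of the Golgi, at 49.8 and 45.8 TPM. Arf4-203 held 68.4% and 67.6% in the first quantification and 17.3% and 9.30% in the second. The coding Arf4-201 went from 30.2% and 30.8% to 50.3% and 59.6% and became the highest. Slc35b1 imports ATP into the endoplasmic reticulum, and Slc35b1-202, with an exon 25 bases shorter, went from 60.2% and 56.6% to 20.9% and 21.2%. Its coding sibling Slc35b1-201 went from 25.5% and 24.8% to 51.4% and 49.6%.

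**Figure D4:**
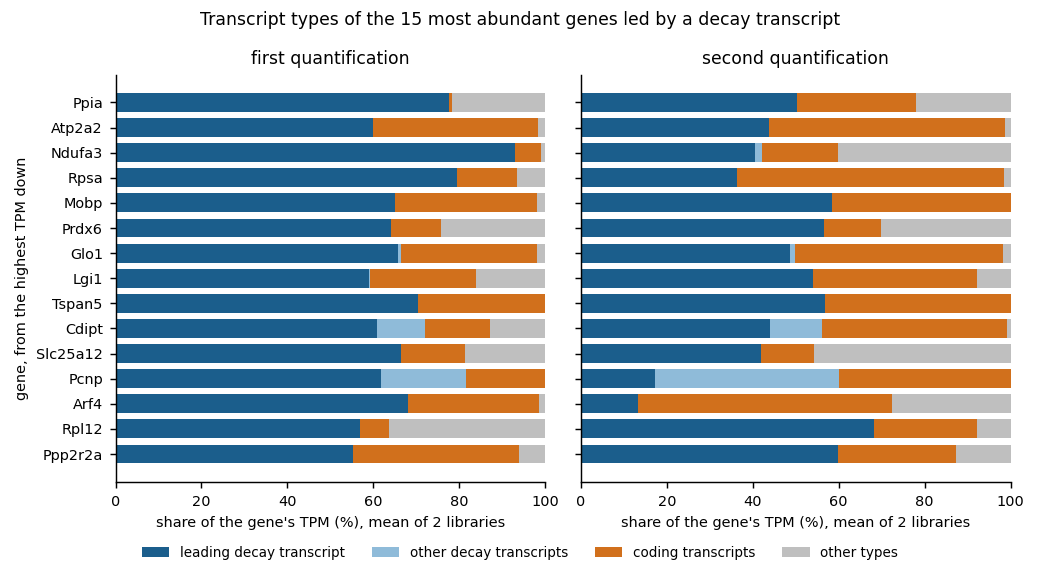
Makeup of the 15 most abundant member genes by transcript type (share of the gene's TPM in %, mean of 2 libraries) in the first quantification (left) and the second (right); stacked bars show the leading decay transcript, other decay transcripts, coding transcripts and other types. The orange coding part of Rpsa was 62.2% and 62.1% by library in the second quantification, against 15.5% and 12.5% in the first.

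The nervous system genes Lgi1 and Mobp led in every estimate. Lgi1 is a secreted neuronal protein that organizes synaptic receptors and is mutated in a familial epilepsy. It was at 75.5 and 75.2 TPM. Lgi1-201, whose sequence is printed above, held 61.0% and 57.3% in the first quantification and 53.7% and 54.4% in the second. Its frame is 216 bases long against 1671 in the longest coding sibling, and coding transcripts together took 26.8% and 22.6%, then 40% and 36.2%. Mobp is a structural protein of myelin made by oligodendrocytes, and it stood at 182 TPM in replicate 1 and 128 TPM in replicate 2. Mobp-204 held 67.0% and 63.2%, then 59.1% and 57.7%. Since this RNA holds the complete frame of the coding Mobp-202, the decay label there refers to an exon junction 264 bases after the stop codon.

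Signalling and protein modification took 10 members, and 6 led again, against 69.4% of all leading transcripts. Ppia, cyclophilin A, is an abundant prolyl isomerase and was the most abundant member gene, at 724 and 684 TPM. Ppia-201 held 79.1% and 76.2% in the first quantification and 49.4% and 51.1% in the second. The coding Ppia-202 went from 0.780% and 0.530% to 27.1% and 27.9%, and the retained intron transcript Ppia-203 went from 19.6% and 22.8% to 0. Ppia shared reads with other genes, and its summed count was 1.29 and 1.27 times as large in the second quantification. Ppp2r2a, a regulatory subunit of protein phosphatase 2A, had 58.2% and 52.2% in Ppp2r2a-203 and then 66.2% and 53.5%. Nkiras1, a Ras-like inhibitor of NF-kappa-B signalling, kept 77.1% and 73.6%, then 73.8% and 73.2%. Zdhhc3, a palmitoyl transferase of the Golgi that acts on synaptic proteins, had 60.3% and 64.8%, then 53.4% and 55.4%. Those 3 decay transcripts each include an exon that the closest coding transcript lacks.

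Naa60, Tesk1 and Jmjd4 lay at the edges. Naa60 acetylates membrane proteins from the Golgi and was at 35.9 and 35.3 TPM. Naa60-201 held 70.8% and 64.7% in the first quantification and 0 and 0.0795% in the second, where the coding Naa60-212 had 50.1% and 65.6%. No intron differs between these 2 RNAs, whose ends differ by 74 bases in all, and both encode the same protein by annotation. Tesk1, a kinase that acts on cofilin, was just inside the share minimum, at 52.0% and 52.2% in Tesk1-204, then 36.0% and 33.5%. Jmjd4, a lysyl hydroxylase, was the nearest to the level minimum at 10.1 and 10.3 TPM, with 59.4% and 73.4%, then 51.5% and 60.9%. Rnf114-203, Pik3cb-203 and Ostf1-205, the other members of this group, held 57.8% to 90.7% in the first quantification and 49.2% to 88.4% in the second.

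Of 7 nuclear members 3 led again, against 69.4% of all leading transcripts. Srsf9 is a splicing factor of the SR family, a family known for decay transcripts that tune its own level, and was at 34.3 and 37.6 TPM. Srsf9-205 held 67.3% and 55.0% in the first quantification and 56.1% and 44.7% in the second, so it stayed highest but passed 50% in replicate 1 alone there. Bcas2, a subunit of the spliceosome, had 52.9% and 54.7% in Bcas2-206, then 56.1% and 65.9%. Cbx1, heterochromatin protein 1 beta, had 63.3% and 56.6% in Cbx1-204, then 66.6% and 60.3%. Both TPM shares were a little higher in the second quantification, in each library. By counts, not scaled to length, Bcas2-206 held 29.3% and 29.7%, then 27.9% and 33.2%. Cbx1-204 held 76.5% and 71.1% of counts, then 80.4% and 75.7%. Pcnp, a nuclear protein, had 63.6% and 60.1% in Pcnp-205, then 29.5% and 4.98%. The other decay transcript of that gene, Pcnp-206, went from 21.1% and 18.6% to 45.0% and 40.9%. The coding Pcnp-202 was at 23.8% in replicate 1 and 52.3% in replicate 2 there, the highest in the latter. Sra1, an RNA and protein coactivator of nuclear receptors, had 72.0% and 80.4% in Sra1-203, then 18.4% and 47.4%. Aptx, a DNA repair enzyme whose loss causes ataxia, was close to the level minimum at 11.5 and 10.9 TPM, with 65.0% and 59.4%, then 45.9% and 42.0%. Zmym5-205 held 61.8% and 59.5%, then 54.4% and 57.0%.

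The 5 members outside these groups were Ermp1 and 4 genes with model names. Gm20716 and Gm20683 have a decay transcript as their only RNA, at 13.6 and 12.6 TPM and at 12.2 and 10.6 TPM. Gm1673-204, of 434 bases, went from 66.1% and 63.0% to 12% in replicate 1 and 0 in replicate 2. Its gene had the fewest reads of all members, 241 and 201. Just outside the share minimum lay Mta3-208, at 50.8% and 48.6%, Acd-203, at 51.3% and 49.0%, and Snx4-203, at 58.6% and 49.7%. Just under the level minimum were Zfp938, at 9.58 and 9.23 TPM, Gm49325, at 11.9 and 9.34 TPM, and Mmaa, at 11.7 and 9.88 TPM, of which Mmaa-202 held 84.5% and 81.6%, then 86.1% and 82.6%.

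The member genes had similar levels in the 2 libraries. None of the 49 was over 2-fold apart, against 0.138% of the 7987 genes with a mean count of at least 100, and 46 of 49 lay within 1.25-fold, against 98.1% of those genes. With 1 group and 2 libraries no test was possible. The log2 ratio of replicate 2 over replicate 1 ran from -0.51 in Mobp to 0.16 in Rpl12 with a median of -0.03, the same as over all expressed genes. Higher in replicate 2 were 18 of 49, against 38.4% of expressed genes. These signs hold under the scaling by TMM, which sets the libraries level over most genes; scaled to spike-ins, the members' median became 0.23, and that of all expressed genes moved by 0.26. After Mobp, the lowest were Lars2 at -0.41 and Tspan5 at -0.33. In bulk tissue, fewer oligodendrocytes and less Mobp RNA per cell cannot be told apart. Gene levels spanned 10.1 to 724 TPM, and 15 of the 49 shared reads with another gene. The part of all expressed genes that shared reads was not computed.

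**Figure D5:**
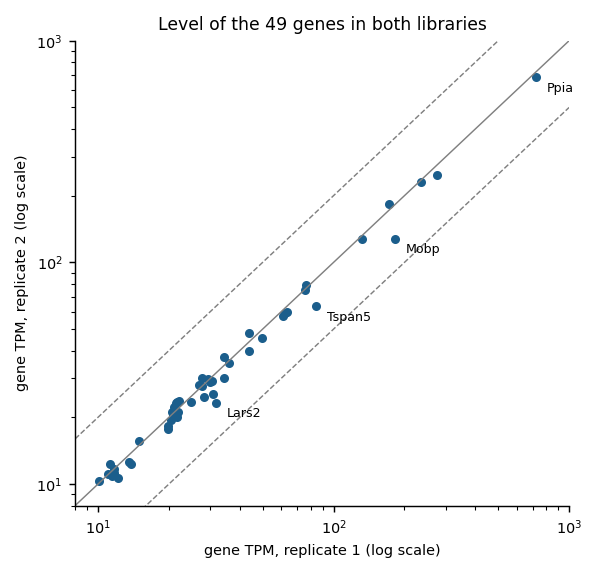
Gene TPM of the 49 members in replicate 1 (x, log scale) and replicate 2 (y, log scale); each point is 1 gene, the solid line marks equality and the dashed lines 2-fold. All points lie between the dashed lines, and Mobp lies farthest from the solid line.

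Across the series, gene counts summed to 32299053 in replicate 1 and 30010758 in replicate 2. All 12 hippocampus markers reached 1 TPM in each library. All 8 choroid plexus markers were over 2-fold higher in replicate 2, 7 of them with a mean count of at least 100, and Ttr stood at 20.8 and 1237 TPM. Of 6 markers of meninges and blood, Igf2 was over 2-fold higher in replicate 2, at 24.7 and 62.5 TPM. No gene of either list has an annotated decay transcript, so none could be a member. The part of these RNAs in the members' shares was not tested.

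The decay machinery was detected throughout. All 15 listed decay factors reached 1 TPM in each library, with a median of 19.3 and 17.9 TPM in replicates 1 and 2. They ran from 4.42 ± 0.55 TPM (SD, n = 2) for the helicase Dhx34 to 35.5 ± 2.49 TPM for the kinase Smg1. Upf1, the central helicase, stood at 28.2 and 26.4 TPM. The 8 genes around the exon junction complex had medians of 24.4 and 25.7 TPM. None of either list was a member, but just 3 of the 15 and 2 of the 8 have an annotated decay transcript. The rest could not be members. Of all 2378 expressed genes with such a transcript, 2.06% were members. In the decay factors, annotated decay transcripts of Smg5 took 4.26% and 4.14% of its TPM and those of Smg6 at most 2.02%. That of Smg1 was at 0 in both libraries in the first quantification and took 10.8% and 12.9% in the second. Among the exon junction genes the highest were Pnn, at 28.4% and 34.2%, and Magohb, at 42.3% in replicate 1 and 0 in replicate 2. In the second quantification Pnn had 47.3% and 61.6% and Magohb 25.3% and 11.5%.

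Splicing factors with known poison exons, which carry an early stop codon, gave 1 member, Srsf9, out of 28. In the 25 with an annotated decay transcript its median share was 9.53% and 7.75%, against 3.61% and 3.91% over all 2378 expressed genes with such a transcript. By the second quantification the medians were 9.94% and 9.50%, against 6.05% and 6.87%. Clk1, a kinase of SR proteins, had 35.7% and 33.7% and Srsf6 had 31.1% and 29.5%, and both had similar values in the second quantification, 37.0% and 35.1% for Clk1 and 33.7% and 32.7% for Srsf6. Of 12 known targets of the pathway that were detected, Rpl12 was the 1 member. Just 4 of the 12 have an annotated decay transcript, so the rest could not be members. Robo3, a guidance receptor with a decay isoform, had 10.8% and 16.1% of its TPM in it, then 15.5% and 25%. Rpl10a had 2.57% and 3.31%, then 0.992% and 2.89%. The non-coding host gene Gas5, a classic target, was at 99.1 and 101 TPM, and the stress factor Atf4 was at 37.9 and 39.8 TPM.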

How the data were processed

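Total RNA from 2 hippocampus libraries (1 group) was measured. In the gene tables and first transcript tables the authors deposited expected counts and TPM, per the file headers, with each transcript's percent of its gene's TPM. Their deposited lower and upper TPM bounds, recorded as a score, were used to compare transcripts. The second transcript tables hold deposited estimated counts and TPM. Both used mm10 with GENCODE M21, per the deposited notes, and the first used transcriptome alignments. Column names are those of RSEM and kallisto. The software, its versions and the strand setting were not given in the sources used here. The mice are hybrids, and reads were quantified on the mm10 sequence.

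Leading meant a share of at least 50% in both libraries, and genes needed 10 TPM in both. Shares in the second quantification were TPM over the gene's summed TPM. The second tables matched 141767 of the 141862 transcripts of the first. Expected counts were rounded and scaled by TMM (edgeR 4.0.16, R 4.3.3; DESeq2 1.42.0 as an alternative), and log2 ratios used a prior count of 0.5. A gene shared reads where its expected count lay over 0.005 from a whole number. The rest was done in Python 3.11.15 with pandas 2.3.3, and scripts were tested on simulated data. Summed gene counts were 32299053 and 30010758. Their number limits precision, and reads without molecular identifiers are not independent molecules.

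The members and lists were chosen with earlier results of these data known. Roles were assigned after values were seen. Named were the 15 members with the highest TPM, up to 15 that led again in the second quantification, the 10 lowest there, those over 2-fold apart, 3 on each side of each threshold, list members, and the 3 genes of each list with the highest decay share. Others were added by name after their values were seen. Of the 7 lists, Ddit3 matched 2 gene identifiers and was not used. Sequences came from GENCODE M21 transcripts, none from chromosome 18. Alternatives were other share and level minimums, other scalings, counts in place of TPM, and each library alone.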

Additional observations from a re-analysis of the deposited data

How the results depend on the processing

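The alternatives numbered 73, of which 22 moved a value beyond the spread or 1.5 times. The 49 members became 93, 30 and 8 at share minimums of 40%, 60% and 75%, and 146 with no level minimum. The number led in both libraries in the second quantification, 24, became 15 and 4 at share minimums of 60% and 75%, 89 with no level minimum, 15 with shares from expected counts, and 41 with a second share minimum of 25%. The number ranked first there, 36, became 63, 19 and 5 at share minimums of 40%, 60% and 75%, and 111 with no level minimum. With 1 replicate left out, the 3 counts ranged over 55 to 59, 30 to 36 and 42 to 47. Decay transcripts led 0.913% of genes with a leader and 1.66% with no share minimum, and 0.951% to 1.01% with 1 replicate left out. Their part of TPM, 1.09%, was 1.15% over all genes, 1.49% by counts and 2.61% in the second quantification, and 1.08% to 1.1% with 1 replicate left out. Median TPM in the second quantification was 28.0 for decay factors, 56.8 for exon junction genes, 100.5 for splicing factors and 41.6 for known targets, against 18.6, 25.04, 56.9 and 19.5. With 1 replicate left out those medians ranged over 17.9 to 19.3, 24.4 to 25.7, 55.6 to 58.1 and 18.8 to 20.2 TPM. Scaling to spike-ins moved the members' median log2 ratio from -0.03 to 0.23 and that of all expressed genes by 0.26, so the count of members higher in replicate 2 depends on the scaling. None of the 49 passed 2-fold under any of the 8 settings tried. Shares from the posterior mean TPM, an alternative chosen after seeing the data, gave 48 members, 23 led again and 35 ranked first. The cause of the shifts was not tested beyond what each minimum does by construction. No paired analysis was possible because there is only 1 group. Depth limited Gm1673 most, whose gene had 241 and 201 reads.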

Other observations

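The reverse case also occurred. At the same gene level, 26 decay transcripts led their gene in both libraries in the second quantification and did not lead in both in the first. Tbca, a cofactor of tubulin folding at 55.2 and 58.9 TPM, was the widest. Tbca-203 was at 0 in both libraries in the first quantification and at 100% and 87.5% in the second. Rnasek-202 went from 2.05% and 2.14% to 100% and 81.0%, in a gene at 115 and 95.3 TPM. Rpl27a-205, of a large-subunit ribosomal protein, went from 2.47% and 4.58% to 69.0% and 76.5%. Smn1-206, of the gene for the survival motor neuron protein, which assembles spliceosomal particles, was at 0 in both libraries and then at 54.5% and 59.1%.

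Some others of the 26 already held 40% or more in both libraries in the first quantification. Ndufs4-204, of a complex I subunit, had 48.1% and 48.9% in the first quantification and 56.5% and 62.3% in the second. Snx4-203 had 58.6% and 49.7%, then 59.1% and 52.8%, and Panx1-201, of a large-pore channel, had 51.0% and 46.5%, then 62.5% and 57.5%. Pfdn5-201, of a prefoldin subunit, was the most abundant at 175 and 168 TPM, with 41.0% and 40.7%, then 67.4% and 71.0%. These genes were named after their values were seen. Taking all decay transcripts of a gene together, 66 expressed genes had at least 50% of their TPM in them in both libraries by the first estimate, and 75 by the other.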
